A study of Mus musculus with 12 samples.

Results

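The genes described here are 39 members of the type I interferon response, taken by symbol from the 24016 genes in 3 comparisons of mutant with wild-type mouse blood progenitors. They were grouped by role into 2 receptor chains, 4 transcription factors, 6 sensors of nucleic acid, 8 modifiers (ISG15 and proteins that attach, remove or relay ubiquitin, ISG15 or ADP-ribose), 10 antiviral effectors and 9 other induced genes. Where a symbol had several transcripts, as 13 members had, the transcript with the highest mean was used.

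Type I interferons are cytokines that bind a receptor of the chains IFNAR1 and IFNAR2 and, through the kinases JAK1 and TYK2, activate a factor with STAT2 and IRF9 in it that binds interferon-stimulated response elements. Sensors such as RIG-I and MDA5 detect viral RNA and lead to interferon production, which IRF7 amplifies, and the induced effectors block viral entry, translation and replication. In blood-forming tissue, interferon is known to drive resting stem cells into cycle, and a low level of these genes is found in stem and progenitor cells without infection.

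Haematopoietic stem and progenitor cells (HSPCs), enriched by lineage depletion from C57BL/6 mice, gave 12 RNA-seq libraries, 3 each from genotype groups that the labels call WT, Smc3, Npm1 and Double, with no allele named. Smc3 is a subunit of cohesin, and Npm1 is a nucleolar protein often mutated in acute myeloid leukaemia. Mice of all 4 groups, WT included, were injected with pIpC (1 mg/mL, intraperitoneally) 7 times, on alternate days, at 4 to 6 weeks of age, and their cells were collected 4 to 6 weeks after the injections. pIpC is a double-stranded RNA that TLR3 and MDA5 sense and that itself induces type I interferon, so every library comes from an animal that once had such a stimulus, and an untreated level was not analysed here. Cre driver and sex are not in the labels either. They do not state that each library is its own animal, so part of the spread between libraries may be technical, although the Smc3 and Double groups, with libraries of both sexes, each hold more than 1 animal.

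The authors' deposited tables give, for each mutant group against WT, a mean normalized count, a moderated log2 fold change with its standard error (3 against 3 libraries), and an adjusted p from DESeq2. They hold no column per library. The printed means carry 12 digits, and each is a sum of whole reads weighted by the libraries' size factors. The reads of single libraries were therefore solved for 18 of the 39 members, those with few enough reads for a single solution, as for 87.6% of all genes with a mean of 5 to 700. The other 21, with means of 492 or more, have the authors' group values only. A library is named here by depth within its group (shallowest, middle, deepest), which is not the labels' replicate number, and normalized counts per library are on 1 scale set by the WT libraries.

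Depth was 10.3 to 20.8 M reads in the WT libraries, 19.8 to 51.6 in Smc3, 10.6 to 33.1 in Npm1 and 27.8 to 35.4 in Double. Y-linked reads (Kdm5d and Uty) summed to 1533 or more normalized counts in the middle and deepest Smc3 and the shallowest and middle Double libraries and to 4.25 or fewer in the other 8, so male libraries occurred only in Smc3 and Double. The Smc3 transcript itself stood at -0.02 ± 0.11 (adjusted p = 0.933) in Smc3 against WT per the authors' deposited table, a value that checks no label since the allele is not named. Of the 8 HSPC markers, Kit had the highest mean at 7285 normalized counts and Procr the lowest at 16.9. Markers of other cells were present as well, among them neutrophil Ngp at a mean of 3394 and erythroid Slc4a1 at 5217. In bulk RNA, fewer cells of a type and less RNA per cell cannot be told apart.

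Isg15, Irf7 and Rsad2 were lower than WT in every mutant group, and further members were lower in Npm1 and Double HSPCs. In Npm1 against WT, 15 of the 38 members with an adjusted p fell (39.5%) and 0 rose (0 at an unadjusted DESeq2 p under 0.05) per the authors' deposited table, where 9% of all tested genes were lower and 9.1% higher. In Double, 12 of 38 fell (31.6%) and 1 rose, beside 9.82% and 8.87% of all genes per the authors' deposited table. In Smc3, 4 of 38 fell (10.5%) and 1 rose, beside 6.6% and 7.94% of all genes per the authors' deposited table, so the share that fell was near the background. At an unadjusted DESeq2 p under 0.05, 8 members were lower and 4 higher in Smc3, 16 and 0 in Npm1, and 15 and 2 in Double. The share of all genes at that unadjusted p was not counted. The median log2 fold change over the 39 members was -0.11 in Smc3, -0.31 in Npm1 and -0.25 in Double per the authors' deposited tables, while that of all tested genes was -0.00, 0.01 and 0.01. Ifit3, whose mean was low, had no adjusted p in any comparison. The 3 comparisons share their WT libraries and so are not independent of each other.

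**Figure D1:**
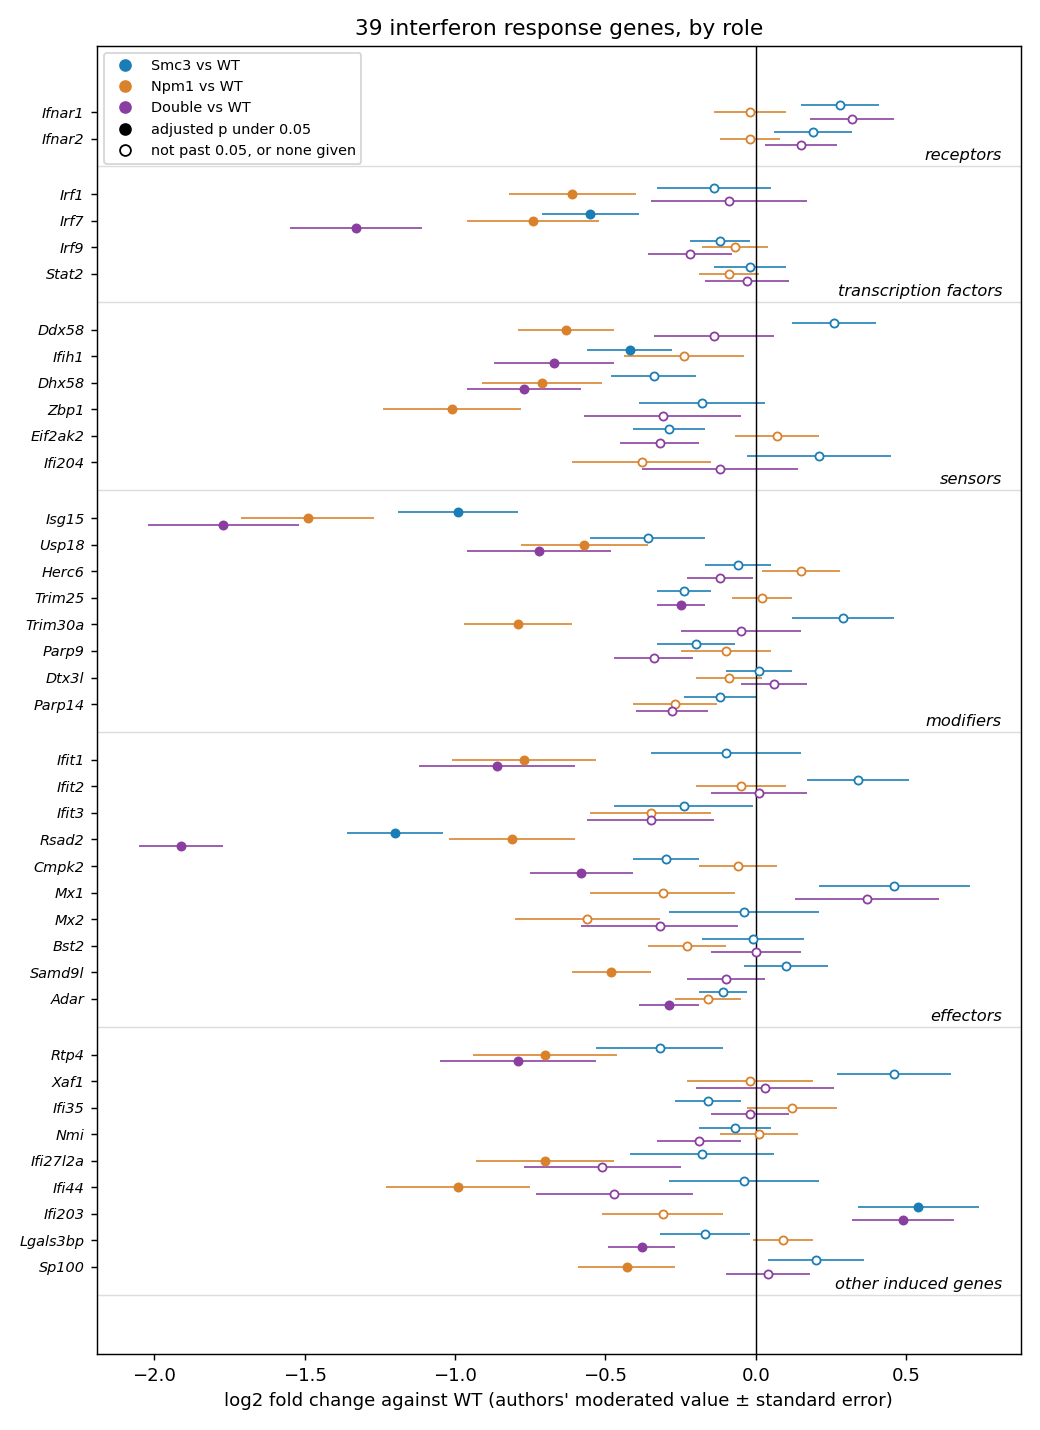
Log2 fold change against WT (x axis, the authors' moderated value ± standard error, 3 against 3 libraries) of the 39 members, grouped by role, for Smc3 (blue), Npm1 (orange) and Double (purple). Filled points passed an adjusted p of 0.05. Rsad2 (-1.91) and Isg15 (-1.77) in Double lie farthest to the left, the receptors lie near or right of 0, and the filled points right of 0 are those of Ifi203.

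Across the 3 comparisons, Irf7, Isg15 and Rsad2 were called lower in all. Dhx58, Usp18, Ifit1 and Rtp4 were called lower in Npm1 and Double, and Ifih1 in Smc3 and Double. A further 8 members (Irf1, Ddx58, Zbp1, Trim30a, Samd9l, Ifi27l2a, Ifi44 and Sp100) were called lower in Npm1 alone and 4 (Trim25, Cmpk2, Adar and Lgals3bp) in Double alone per the authors' deposited tables. A call in one comparison and not in another is no test of the difference, which is given further on. The remaining 19 members were called lower in none. The shares of all genes with the same patterns of calls were not counted, so these numbers have no background beside them.

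Interferon-induced genes are known for response elements near their start, and the promoters of the 6 members with the smallest p in Npm1 against WT that have an entry in the RefSeq promoter table are shown (build GRCm38.p6, 250 bases before to 50 after the annotated start, 5′ to 3′ on the gene's strand). Capitals mark the core of the interferon-stimulated response element (GAAA, 2 bases of any kind, GAAA) on either strand. The STAT-type motif TTCNNNGAA, also searched on both strands, was in none of the 6.
Isg15 (chr4:156200769-156201068, minus strand): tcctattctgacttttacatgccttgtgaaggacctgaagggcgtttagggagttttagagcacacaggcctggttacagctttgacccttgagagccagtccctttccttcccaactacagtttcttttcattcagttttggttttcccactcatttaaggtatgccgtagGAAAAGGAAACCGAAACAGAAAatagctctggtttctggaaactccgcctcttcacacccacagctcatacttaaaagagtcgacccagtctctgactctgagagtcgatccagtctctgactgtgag
Trim30a (chr7:104446076-104446375, minus strand): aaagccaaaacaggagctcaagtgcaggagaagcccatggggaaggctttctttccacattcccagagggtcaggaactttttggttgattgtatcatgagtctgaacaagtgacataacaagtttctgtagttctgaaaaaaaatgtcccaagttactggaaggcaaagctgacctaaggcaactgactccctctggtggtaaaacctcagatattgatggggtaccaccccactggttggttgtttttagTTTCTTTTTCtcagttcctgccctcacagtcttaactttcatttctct
Ifi44 (chr3:151749861-151750160, minus strand): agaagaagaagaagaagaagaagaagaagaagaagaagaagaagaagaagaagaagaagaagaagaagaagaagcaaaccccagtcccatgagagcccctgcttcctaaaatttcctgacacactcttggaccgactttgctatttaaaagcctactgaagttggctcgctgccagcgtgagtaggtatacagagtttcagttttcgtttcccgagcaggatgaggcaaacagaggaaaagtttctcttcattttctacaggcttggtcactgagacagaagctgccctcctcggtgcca
Ddx58 (chr4:40239776-40240075, minus strand): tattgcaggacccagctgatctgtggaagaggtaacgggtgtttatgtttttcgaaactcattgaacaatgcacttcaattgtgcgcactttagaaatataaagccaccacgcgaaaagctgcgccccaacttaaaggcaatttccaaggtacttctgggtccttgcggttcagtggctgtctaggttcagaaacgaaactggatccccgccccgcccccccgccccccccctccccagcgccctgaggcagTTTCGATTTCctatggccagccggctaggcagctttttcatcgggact
Rsad2 (chr12:26456403-26456702, minus strand): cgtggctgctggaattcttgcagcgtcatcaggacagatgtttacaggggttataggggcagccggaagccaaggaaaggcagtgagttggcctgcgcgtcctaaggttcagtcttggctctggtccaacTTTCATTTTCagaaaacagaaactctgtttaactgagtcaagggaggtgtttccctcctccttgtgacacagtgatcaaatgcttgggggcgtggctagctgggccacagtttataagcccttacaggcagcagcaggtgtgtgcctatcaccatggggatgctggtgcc
Samd9l (chr6:3399522-3399821, minus strand): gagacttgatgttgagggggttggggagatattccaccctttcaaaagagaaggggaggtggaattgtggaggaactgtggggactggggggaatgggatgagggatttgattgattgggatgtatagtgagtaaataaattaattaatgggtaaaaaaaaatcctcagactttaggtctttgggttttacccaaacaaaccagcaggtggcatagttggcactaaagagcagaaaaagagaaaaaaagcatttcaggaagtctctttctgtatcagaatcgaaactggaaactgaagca
The Isg15 window held 3 overlapping matches in 1 run, at positions -78, -72 and -66 from the annotated start. In Rsad2 the match began at -120, and in Trim30a and Ddx58 it began 2 bases past the start. Ifi44 and Samd9l held none in these letters. Trim30a has 2 entries, of which the first was used.

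Over the 29 members with an entry, 11 promoters (37.9%) held the response element core, against 952 of 27025 promoters in the table (3.52%). TTCNNNGAA was in 7 of the 29 (24.1%) and in 8.37% of all promoters. The core was in 6 of the 15 members called lower in at least 1 comparison (40%) and in 5 of the 14 called lower in none (35.7%). TTCNNNGAA was in 1 of the 15 (6.67%) and in 6 of the 14 (42.9%), namely Ifnar1, Ifnar2, Eif2ak2, Ifit2, Bst2 and Ifi35, while Irf1 was the 1 among the 15. These are counts of letters in short windows and were not tested.

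In WT HSPCs the members spanned a wide range of levels per length of transcript. Lgals3bp, a secreted galectin-binding glycoprotein, was highest at an estimated 1852 normalized counts per kb, followed by Bst2 (tetherin, which holds budding virions to the cell) at 1142. The transcription factor Irf1 stood at 643 per kb, the receptor chain Ifnar2 at 633 and Irf7 at 212. Ifit3 (6.43 per kb), Mx2 (15.4), Ifi44 (15.9), Ifi204 (16.2) and Ifit1 (17.0) were lowest. Values of members without library counts are estimates from the mean and moderated fold change of the authors' deposited Double table, with no spread, so neighbours in this order are not told apart. Lengths are of GENCODE M21 transcripts matched by RefSeq accession, and Mx1 and Ifi203 had no match.

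**Figure D2:**
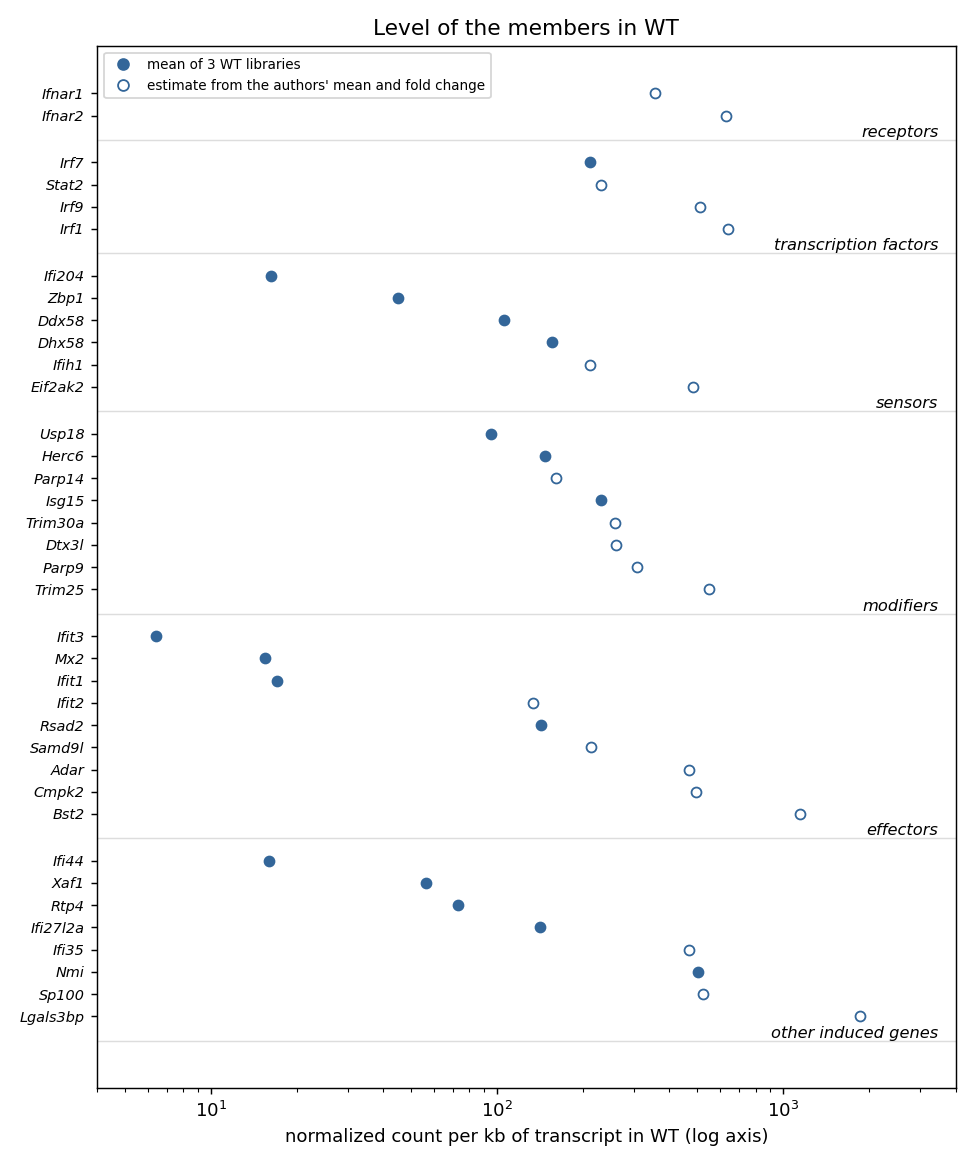
Normalized count per kb of transcript in WT (x axis, log scale) for the 37 members with a transcript length, by role. Filled points are means of 3 WT libraries and open points are estimates from the authors' mean and fold change. Lgals3bp at 1852 and Ifit3 at 6.43 mark the ends of the range.

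The receptor chains did not pass the threshold in any comparison. Ifnar1 stood at 0.28 ± 0.13 in Smc3 (adjusted p = 0.12), -0.02 ± 0.12 in Npm1 (adjusted p = 0.939) and 0.32 ± 0.14 in Double (adjusted p = 0.0921) per the authors' deposited tables. Ifnar2 stood at 0.19 ± 0.13, -0.02 ± 0.10 and 0.15 ± 0.12 in the same order per the authors' deposited tables.

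Among the 4 transcription factors, Irf7 differed from WT in every mutant and the STAT2 and IRF9 partners in none. Irf7, which amplifies interferon production, had normalized counts of 335, 442 and 440 in the shallowest, middle and deepest WT libraries and 309, 251 and 238 in those of Smc3. In Npm1 it had 308, 165 and 116, and in Double 156, 74.9 and 146. The 9 mutant libraries all lay below the lowest WT library, and the Double libraries also lay below all Smc3 libraries. The group means were 406 ± 60.9 (SD, n = 3) in WT, 266 ± 37.6 in Smc3, 196 ± 99.9 in Npm1 and 126 ± 44.1 in Double. The log2 fold change of Irf7 was -0.55 ± 0.16 (adjusted p = 0.00856) in Smc3, -0.74 ± 0.22 (adjusted p = 0.00985) in Npm1 and -1.33 ± 0.22 (adjusted p = 5.54e-08) in Double per the authors' deposited tables.

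Irf1, a factor that interferons of both types induce, fell in Npm1, at a log2 fold change of -0.61 ± 0.21 (adjusted p = 0.0261) per the authors' deposited table and stood at -0.14 ± 0.19 in Smc3 and -0.09 ± 0.26 in Double, neither past the threshold. Irf9, the DNA-binding partner of STAT2, lay between -0.22 and -0.07, and Stat2 between -0.09 and -0.02, per the authors' deposited tables. The median of the 4 factors was -0.13 in Smc3, -0.35 in Npm1 and -0.16 in Double per the authors' deposited tables.

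Of the 6 sensors, 1 fell in Smc3, 3 in Npm1 and 2 in Double, beside 6.6%, 9% and 9.82% of all genes, per the authors' deposited tables. The medians of the sensors were -0.23, -0.50 and -0.32 in the same order per the authors' deposited tables. Dhx58 encodes LGP2, a regulator of the RNA sensors RIG-I and MDA5. Its normalized counts were 358, 371 and 389 in WT, 297, 316 and 257 in Smc3, 287, 179 and 144 in Npm1 and 218, 139 and 241 in Double. Every mutant library was below every WT library. The log2 fold change was -0.34 ± 0.14 in Smc3 (adjusted p = 0.0755, not past the threshold), -0.71 ± 0.20 in Npm1 (adjusted p = 0.00492) and -0.77 ± 0.19 in Double (adjusted p = 0.00079) per the authors' deposited tables.

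Ddx58 encodes RIG-I, which binds viral RNA with a 5′ triphosphate. Its normalized counts were 377, 460 and 391 in WT, 550, 441 and 506 in Smc3, 302, 232 and 224 in Npm1 and 383, 242 and 465 in Double. The Npm1 libraries lay below all WT and all Smc3 libraries, and the Smc3 and Double libraries overlapped WT. Ddx58 fell in Npm1, at -0.63 ± 0.16 (adjusted p = 0.00167) per the authors' deposited table and stood at 0.26 ± 0.14 in Smc3 and -0.14 ± 0.20 in Double. Ifih1, which encodes the long double-stranded RNA sensor MDA5, fell in Smc3 (-0.42 ± 0.14, adjusted p = 0.0232) and Double (-0.67 ± 0.20, adjusted p = 0.00801) per the authors' deposited tables, and its value in Npm1 was -0.24 ± 0.20. Its differences between mutant groups did not pass the z test described further on.

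Zbp1, a sensor of left-handed nucleic acid that can start cell death, had normalized counts of 78.7, 97.4 and 92.5 in WT and 42.5, 31.3 and 21.7 in Npm1. In Smc3 they were 101, 70.3 and 61.0 and in Double 95.3, 19.4 and 65.9. The Npm1 libraries were separate from WT and from Smc3, and the Double libraries spread over nearly the whole range. Zbp1 fell in Npm1, at -1.01 ± 0.23 (adjusted p = 0.000351) per the authors' deposited table. Eif2ak2 (PKR, a kinase that halts translation on double-stranded RNA) stood at -0.29 ± 0.12, 0.07 ± 0.14 and -0.32 ± 0.13 in Smc3, Npm1 and Double, none past the threshold (adjusted p = 0.0839, 0.75 and 0.0556) per the authors' deposited tables. Ifi204, a member of the DNA-binding p200 family, had 68.3 normalized counts in the shallowest WT library against 22.5 and 20.5 in the others, and all groups overlapped WT.

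Isg15 was the member furthest from WT in the modifier group. It encodes a ubiquitin-like protein that is joined to many targets during the response. Its normalized counts were 164, 186 and 173 in WT, 98.7, 58.7 and 67.6 in Smc3, 44.6, 52.2 and 25.7 in Npm1, and 40.7, 10.7 and 27.2 in Double. The groups were separate from WT throughout, and all Npm1 and all Double libraries were below all Smc3 libraries. Means were 174 ± 11.2 in WT (SD, n = 3), 75.0 ± 21.0 in Smc3, 40.9 ± 13.6 in Npm1 and 26.2 ± 15.0 in Double, or 43.1%, 23.5% and 15.1% of WT. The log2 fold changes per the authors' deposited tables were -0.99 ± 0.20 (adjusted p = 6.88e-05), -1.49 ± 0.22 (adjusted p = 1.33e-09) and -1.77 ± 0.25 (adjusted p = 2.8e-10) in Smc3, Npm1 and Double.

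Usp18, which removes ISG15 and also damps signalling at IFNAR2, had normalized counts of 149, 162 and 196 in WT, 154, 126 and 100 in Smc3, 138, 74.1 and 94.2 in Npm1 and 114, 39.5 and 90.7 in Double. It fell in Npm1 (-0.57 ± 0.21, adjusted p = 0.0358) and Double (-0.72 ± 0.24, adjusted p = 0.0234) per the authors' deposited tables. Herc6, the ligase that joins ISG15 to proteins in mice, had 677 to 732 normalized counts in WT, 608 to 708 in Smc3, 671 to 872 in Npm1 and 601 to 674 in Double. It was past the threshold in no comparison, and its largest value was 0.15 ± 0.13 in Npm1 per the authors' deposited table. Ube2l6, the E2 enzyme of the same ISG15 cascade and no member here, fell in Smc3 (-0.55 ± 0.12, adjusted p = 0.000277) and Double (-0.73 ± 0.17, adjusted p = 0.000429) per the authors' deposited tables.

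Trim30a, a mouse TRIM protein that restrains inflammatory signalling, fell in Npm1, at -0.79 ± 0.18 (adjusted p = 0.000538) per the authors' deposited table and stood at 0.29 ± 0.17 in Smc3. Trim25, a ubiquitin ligase of the RIG-I pathway, fell in Double, at -0.25 ± 0.08 (adjusted p = 0.0201) per the authors' deposited table. Parp9, its partner Dtx3l and Parp14, all of ADP-ribose signalling, passed the threshold nowhere, with values from -0.34 to 0.06 per the authors' deposited tables.

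Among the 10 effectors, 9 had an adjusted p. Of these, 1 fell in Smc3, 3 in Npm1 and 4 in Double, beside 6.6%, 9% and 9.82% of all genes, per the authors' deposited tables. Rsad2 encodes viperin, a radical SAM enzyme that makes a chain-terminating nucleotide. Its normalized counts were 590, 515 and 502 in WT, 176, 187 and 254 in Smc3, 285, 334 and 145 in Npm1, and 121, 122 and 137 in Double. No mutant library reached the lowest WT library, and the 3 Double libraries lay below all 3 Npm1 and all 3 Smc3 libraries. Means were 536 ± 47.3 in WT, 205 ± 42.1 in Smc3, 255 ± 98.1 in Npm1 and 127 ± 8.74 in Double (SD, n = 3). Per the authors' deposited tables Rsad2 fell, at -1.20 ± 0.16 in Smc3 (adjusted p = 4.1e-10), -0.81 ± 0.21 in Npm1 (adjusted p = 0.00236) and -1.91 ± 0.14 in Double (adjusted p = 1.43e-38). Cmpk2, a nucleotide kinase whose gene lies beside Rsad2, fell in Double (-0.58 ± 0.17, adjusted p = 0.00601) and stood at -0.30 ± 0.11 in Smc3 (adjusted p = 0.0535) and -0.06 ± 0.13 in Npm1 per the authors' deposited tables.

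**Figure D3:**
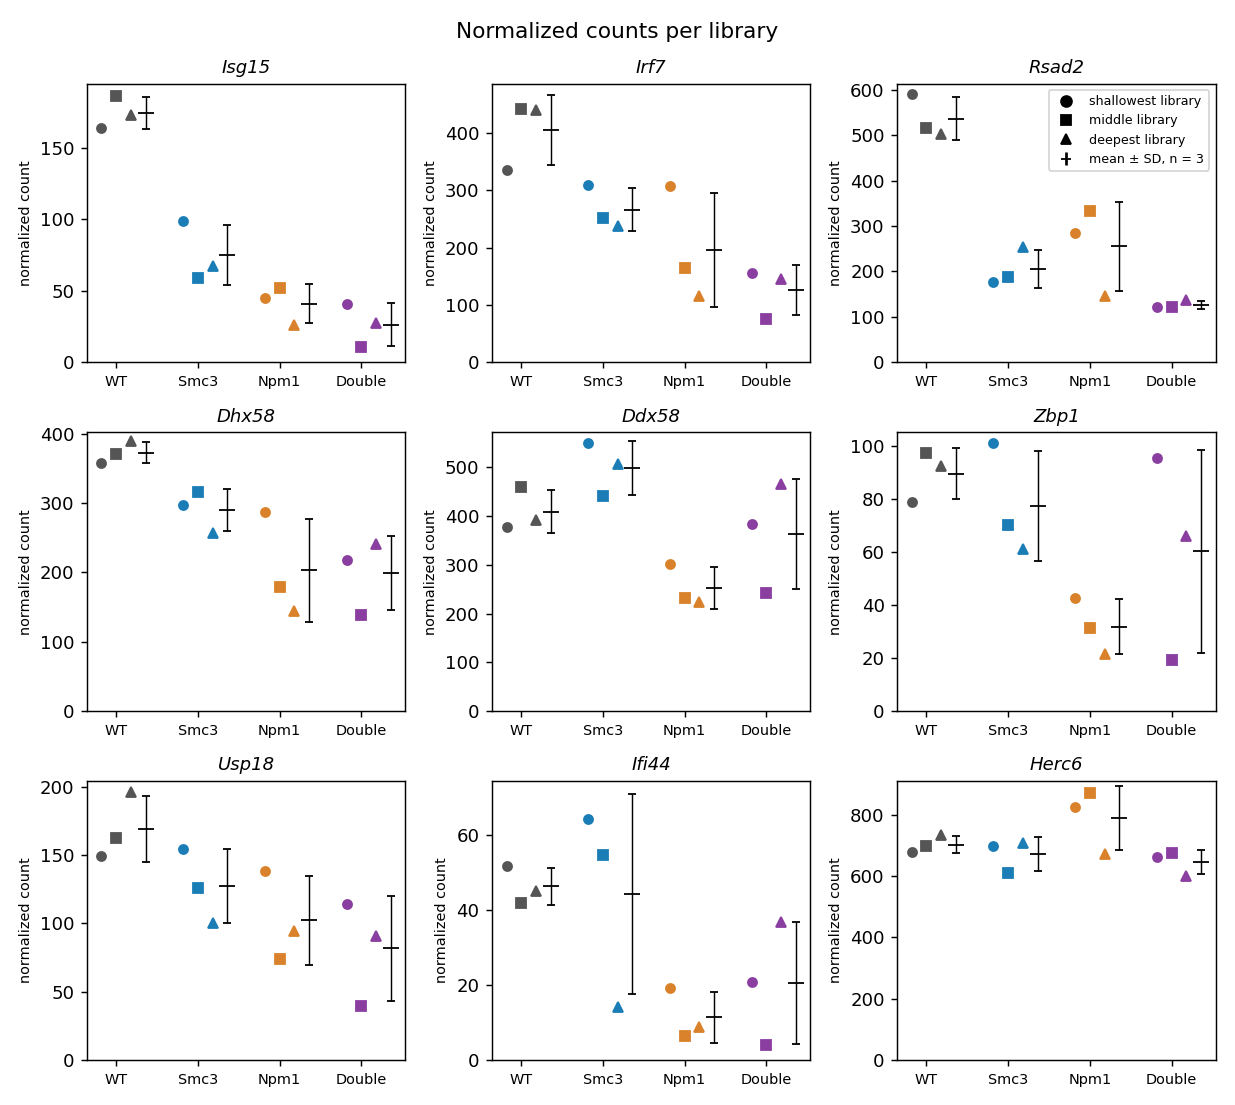
Normalized count (y axis) of 9 members in each library, by genotype group, with symbols for the shallowest, middle and deepest library of a group and the mean ± SD (n = 3) beside them. For Isg15, Irf7, Rsad2 and Dhx58 every mutant point lies below every WT point; for Ddx58 and Zbp1 all 3 Npm1 points do so and the other mutant groups overlap WT; Herc6 stays between 601 and 872 in all libraries.

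The IFIT genes, which encode proteins that bind foreign RNA, differed among themselves. Ifit1 had normalized counts of 35.2, 56.9 and 43.1 in WT, 60.1, 42.2 and 18.1 in Smc3, 19.1, 18.8 and 10.8 in Npm1 and 16.1, 8.70 and 21.8 in Double. The Npm1 and Double libraries were all below WT, and Smc3 overlapped it. Ifit1 fell in Npm1 (-0.77 ± 0.24, adjusted p = 0.0147) and Double (-0.86 ± 0.26, adjusted p = 0.00918) per the authors' deposited tables. Ifit2 stood at 0.34 ± 0.17 in Smc3, -0.05 ± 0.15 in Npm1 and 0.01 ± 0.16 in Double per the authors' deposited tables, none past the threshold. Ifit3 had 9.25 to 12.4 normalized counts in WT and 1.35 to 6.37 in Npm1, and the middle Double library had 0 reads, which allows up to 2.01 normalized counts (3 reads, counting error only).

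Samd9l, a restriction factor that slows growth of blood progenitors, fell in Npm1 (-0.48 ± 0.13, adjusted p = 0.00653) per the authors' deposited table. Adar, an enzyme that edits adenosine in double-stranded RNA, fell in Double (-0.29 ± 0.10, adjusted p = 0.0201) per the authors' deposited table. Bst2 lay between -0.23 and -0.00 per the authors' deposited tables. Mx1 and Mx2 are antiviral GTPases, and C57BL/6 mice carry a defective Mx1. Mx1 had 213 normalized counts in the shallowest Smc3 library against 64.7 and 77.7 in the others, and stood at 0.46 ± 0.25, -0.31 ± 0.24 and 0.37 ± 0.24 in Smc3, Npm1 and Double per the authors' deposited tables, with none past the threshold. Mx2 had 31.1 to 43.1 normalized counts in WT and 14.6 to 25.5 in Npm1, where its fold change of -0.56 ± 0.24 had an adjusted p of 0.0785 per the authors' deposited table.

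Of the 9 other induced genes, 0 fell in Smc3, 4 in Npm1 and 2 in Double, beside 6.6%, 9% and 9.82% of all genes, per the authors' deposited tables. Rtp4, a receptor chaperone that also restricts RNA viruses, had normalized counts of 104, 132 and 110 in WT, 105, 95.9 and 59.8 in Smc3, 85.0, 31.3 and 20.3 in Npm1 and 49.9, 12 and 62.3 in Double. It fell in Npm1 (-0.70 ± 0.24, adjusted p = 0.0271) and Double (-0.79 ± 0.26, adjusted p = 0.019) per the authors' deposited tables. Ifi44, an induced cytoplasmic protein, had 41.9 to 51.8 normalized counts in WT, 64.4, 54.6 and 14 in Smc3, 19.1, 6.27 and 8.81 in Npm1 and 20.7, 4.02 and 36.9 in Double. It fell in Npm1, at -0.99 ± 0.24 (adjusted p = 0.0011) per the authors' deposited table, and at -0.47 ± 0.26 the Double value did not pass, though no Double library reached WT.

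Ifi27l2a had 114 normalized counts in the shallowest WT library and 40.4 and 41.1 in the others, against 31.9, 12.5 and 7.45 in Npm1, where it fell, at -0.70 ± 0.23 (adjusted p = 0.0225) per the authors' deposited table. Sp100, a nuclear body protein, fell in Npm1 (-0.43 ± 0.16, adjusted p = 0.0434) per the authors' deposited table. Lgals3bp fell in Double (-0.38 ± 0.11, adjusted p = 0.00468) per the authors' deposited table. Ifi203, of the same p200 family as Ifi204, was the member that rose, by 0.54 ± 0.20 in Smc3 (adjusted p = 0.0484) and 0.49 ± 0.17 in Double (adjusted p = 0.0256), and stood at -0.31 ± 0.20 in Npm1 per the authors' deposited tables. Xaf1, a promoter of apoptosis, had 142 to 151 normalized counts in WT and 157, 263 and 226 in Smc3, all above WT, yet its fold change of 0.46 ± 0.19 had an adjusted p of 0.0792 per the authors' deposited table. Nmi and Ifi35, which bind each other, passed the threshold nowhere.

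Set side by side, transcription factors were lower in 1, 2 and 1 of 4 in Smc3, Npm1 and Double, sensors in 1, 3 and 2 of 6, and effectors in 1, 3 and 4 of 9 tested, per the authors' deposited tables. Over all genes the shares lower were 6.6%, 9% and 9.82%, and 1 call in a role is too few to set apart from these. The median of the effectors was -0.07, -0.33 and -0.31 in the same order per the authors' deposited tables. No test between roles was made. In each of these roles members that fell stood beside members near 0. Examples are Irf7 and Stat2 in every comparison, Dhx58 and Eif2ak2 in Npm1, and Rsad2 and Bst2 in Smc3 and Double. Eif2ak2 stood at -0.29 ± 0.12 in Smc3 and -0.32 ± 0.13 in Double, not past the threshold, per the authors' deposited tables.

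Taken by library, the 18 members read back were separate from WT most often in Npm1. In Npm1, 13 of the 18 had every library below every WT library and 0 had every library above (11.5% of genes), while 20% of 6674 genes read back were all lower. In Double 10 of 18 were all lower, beside 12.7% of genes, and 0 were all higher, beside 19.5%. The 10 included Herc6, whose highest Double library (674) lay just below its lowest WT library (677). In Smc3, 5 of 18 were all lower (Irf7, Dhx58, Isg15, Ifit3 and Rsad2), beside 8.59% of genes. In Smc3, 1 member (Xaf1) was all higher, beside 21.4% of genes. The Smc3 count was 10 without the shallowest Smc3 library, beside 12.5% of genes, and 8 without the shallowest WT library, beside 12.7%. With any 1 library left out, the Npm1 count was 13 to 16, beside 23% to 37.2% of genes, and the Double count 10 to 13, beside 15.2% to 17.6%. With 3 against 3 libraries an exact permutation test of 1 gene cannot go below p = 0.10, so none is given.

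**Figure D4:**
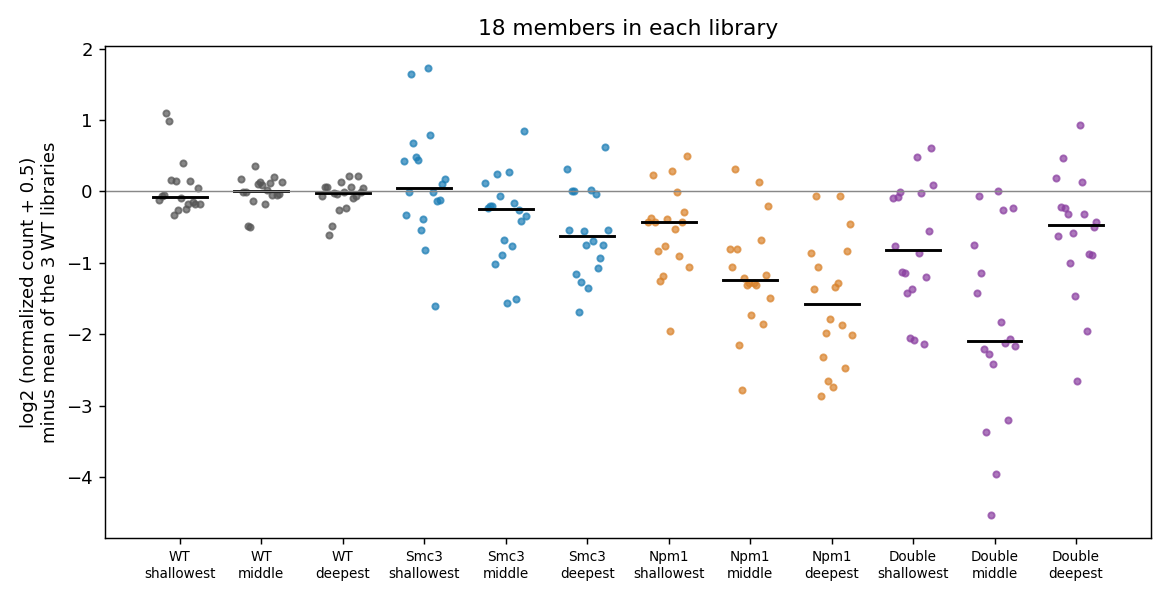
Log2 of normalized count plus 0.5, minus the mean of the 3 WT libraries (y axis), for the 18 members read back (points) in each of the 12 libraries (x axis), with the median as a bar. The WT medians lie between -0.07 and 0.01, the 3 Npm1 medians between -1.58 and -0.43, and the middle Double library has the lowest median at -2.10.

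The libraries of 1 genotype group differed among themselves. The median of the 18 members, relative to the WT mean on the log2 scale, was 0.05, -0.25 and -0.62 in the shallowest, middle and deepest Smc3 libraries, -0.43, -1.25 and -1.58 in those of Npm1 and -0.82, -2.10 and -0.47 in those of Double. In the WT libraries it was -0.07, 0.01 and -0.02. Over all 6674 genes read back, the same median ran from -0.26 in the middle Npm1 library to 0.17 in the deepest Double library. The middle Double library was the lowest of all 12 for 11 of the 18 members, among them Isg15 at 10.7 and Rtp4 at 12. The share of all genes for which it was lowest was not counted. It lay below every WT library for 17 of the 18 members, beside 33.1% of genes read back. For the shallowest and deepest Double libraries the shares of genes were 25.6% and 25.1%, so the middle Double library was low more widely. The median log2 ratio of Double to WT group means over the 18 members was -0.98, and -0.69 without that library. For Smc3 it was -0.19, and -0.51 without the shallowest and -0.10 without the deepest Smc3 library, while for Npm1 it was -1.03 and stayed between -1.34 and -0.82 with any 1 library left out.

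Markers of other cells also varied between these libraries. The 5 of 6 plasmacytoid dendritic cell markers read back, a cell type that makes much interferon, summed to 141 to 331 normalized counts in WT, 242 to 722 in Smc3, 131 to 178 in Npm1 and 132 to 516 in Double, with Klk1 at or near 0. The 4 B cell markers summed to 262 to 669 in WT, 269 to 425 in Smc3, 254 to 357 in Npm1 and 116 to 335 in Double, and the 4 T and NK cell markers to 145 to 171 in WT, 188 to 467 in Smc3, 60.6 to 202 in Npm1 and 104 to 423 in Double. For 3 of 7 monocyte and macrophage markers the ranges were 69.9 to 174, 43.8 to 162, 37.6 to 80.7 and 43.5 to 170. The middle Double library held the lowest sum of its group in each of these lists. It was also lowest for the 3 of 8 HSPC markers read back, at 309 against 636 in the shallowest and 714 in the deepest Double library. Neutrophil, erythroid and basophil markers were not read back by library. Of the 5 neutrophil markers, 1 had an adjusted p in Smc3 and 0 in Npm1 and Double, per the authors' deposited tables. All 4 basophil and mast cell markers rose in Smc3 and fell in Npm1, and 5 of 5 erythroid markers fell in Double, per the authors' deposited tables. The part of these cells in the members' differences was not tested.

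Sex and depth moved with genotype too. Only libraries without Y-linked reads can be set against WT within 1 sex, which leaves 1 library in Smc3 and 1 in Double and all 3 in Npm1. In the 1 such Double library, the deepest, 13 of the 18 members were below every WT library, beside 25.1% of genes read back, with Isg15 at 27.2, Irf7 at 146 and Rsad2 at 137 normalized counts. In the 1 such Smc3 library, the shallowest, 5 were below every WT library, beside 26.1% of genes, so that the members' share there was near the background, with Isg15 at 98.7, Irf7 at 309 and Rsad2 at 176, and the median over members was 0.05. The shallowest Npm1 library had 10.6 M reads, near the 10.3 of the shallowest WT library, and 13 of its 18 members were below the lowest WT library, beside 32.2% of genes. The part of sex and depth in the members' differences was not tested.

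Differences between the mutant groups were tested with a z test on the authors' fold changes, adjusted over all genes. Its variance counts the shared WT libraries in both fold changes, and the counts with an estimate of that shared part removed are given beside it. Between Npm1 and Smc3, 6 members were lower in Npm1 and 0 were higher (8 and 1 at an unadjusted z test p under 0.05, beside 12.6% and 13% of genes), where 7.57% and 6.36% of 18282 genes were. With the shared WT variance removed, 9 were lower and 2 (Eif2ak2 and Trim25) higher, beside 13.6% and 14.2% of genes. At an adjusted p under 0.01 of the z test 2 were lower, and the share of genes at 0.01 was not counted here or below. The 6 were Trim30a (difference -1.07 ± 0.25, adjusted p = 0.000772), Ifi44 (-0.95 ± 0.34, 0.0427), Ddx58 (-0.89 ± 0.21, 0.000958), Ifi203 (-0.84 ± 0.28, 0.0277), Sp100 (-0.63 ± 0.22, 0.0395) and Samd9l (-0.57 ± 0.19, 0.0253). In the library counts, 4 of 18 members had every Npm1 library below every Smc3 library, namely Ddx58, Zbp1, Ifi204 and Isg15, beside 31.8% of genes, and 0 were all higher, beside 9.78%.

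Between Double and Npm1, 2 members were lower in Double and 1 higher, where 2.89% and 4.09% of 18343 genes were. With the shared WT variance removed, 6 were lower and 6 higher, beside 8.83% and 9.48% of genes, and at an adjusted p under 0.01 of the z test 1 was lower and 0 higher (5 and 6 at an unadjusted p under 0.05, beside 8.58% and 9.39% of genes). Rsad2 was lower, at -1.11 ± 0.25 (adjusted p = 0.00115) and Lgals3bp at -0.47 ± 0.14 (adjusted p = 0.0249), and Ifi203 was higher, at 0.79 ± 0.26 (adjusted p = 0.0411). Rsad2 was also the 1 member of 18 whose Double libraries all lay below all Npm1 libraries, beside 8.11% of genes, and 0 were all higher, beside 23.1%. Between Double and Smc3 the z test called 0 members in either direction, where 0.182% of 18729 genes were lower and 0.0801% higher, although 34 of the 39 fold changes were more negative in Double, with a median difference of -0.18 beside -0.00 for all genes. With the shared WT variance removed, 2 members (Irf7 and Rsad2) were lower in Double than in Smc3, beside 0.699% of genes, and 0 were higher, beside 0.331%. At an unadjusted z test p under 0.05, 4 members were lower in Double than in Smc3 (Irf7, Isg15, Ifit1 and Rsad2), beside 1.82% of genes, and 0 were higher, beside 0.988%. Irf7, Dhx58, Isg15 and Rsad2 had every Double library below every Smc3 library, 4 of 18 beside 9.87% of genes, and 0 were all higher, beside 4.93%.

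Of 25 further genes of interferon induction and signalling, 2 fell and 2 rose of 22 tested in Smc3, 3 fell and 1 rose of 22 in Npm1, and 1 fell and 3 rose of 23 in Double per the authors' deposited tables. The shares that fell were 9.09%, 13.6% and 4.35%, beside 6.6%, 9% and 9.82% of all genes, and are read as near the background. Of all genes, 7.94%, 9.1% and 8.87% rose in the same order, so the counts that rose are read as near the background too. Socs3, a feedback inhibitor of JAK kinases, fell in Smc3 (-0.89 ± 0.21, adjusted p = 0.00141) and Npm1 (-0.87 ± 0.22, adjusted p = 0.00182) per the authors' deposited tables. The kinase Jak1 rose in Npm1 (0.35 ± 0.10, adjusted p = 0.00473), where the DNA sensor Mb21d1 (cGAS) fell (-0.52 ± 0.13, adjusted p = 0.00169) per the authors' deposited table. Tlr9, an endosomal DNA receptor, rose in Smc3 (0.90 ± 0.22, adjusted p = 0.0015) and Double (0.66 ± 0.24, adjusted p = 0.0346), and Tmem173 (STING) rose in Smc3 (0.62 ± 0.20, adjusted p = 0.0188) per the authors' deposited tables. Ikbke, a kinase upstream of IRF factors, fell in Npm1 (-0.48 ± 0.17, adjusted p = 0.0382) and rose in Double (0.49 ± 0.17, adjusted p = 0.0257), where its adaptor Traf3 rose as well (0.41 ± 0.12, adjusted p = 0.00787) per the authors' deposited tables. Of the interferon genes listed, Ifnb1 had a mean of 0.1 and Ifna4 was at 0.

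Of 16 genes of the type induced by interferon gamma, 4 of 15 tested rose in Smc3 and 4 of 15 in Double, beside 7.94% and 8.87% of all genes, and 3 of 14 fell in Npm1, beside 9%, per the authors' deposited tables. Ifngr2, Gbp5 and Irgm2 rose in both Smc3 and Double, with Gbp5 at 0.61 ± 0.18 (adjusted p = 0.00952) and 0.56 ± 0.16 (adjusted p = 0.00617) per the authors' deposited tables. Gbp2 also rose in Smc3 and Gbp3 in Double per the authors' deposited tables. In Npm1 the GTPases Gbp2, Gbp3 and Iigp1 fell, Iigp1 at -0.94 ± 0.24 (adjusted p = 0.00199), per the authors' deposited table. Of the 8 genes of the Oas family, whose best known members are enzymes that double-stranded RNA activates, 2 of 8 tested fell in Smc3 (Oas3 and Oasl1), 4 of 7 in Npm1 (Oas1a, Oas2, Oas3 and Oasl2) and 5 of 8 in Double (Oas1a, Oas1c, Oas3, Oasl1 and Oasl2), beside 6.6%, 9% and 9.82% of all genes per the authors' deposited tables. Of 7 Ifitm genes, whose proteins block viral entry, 0 of 5 tested fell in Smc3, beside 6.6% of all genes, per the authors' deposited table. In Npm1 4 of 5 fell (Ifitm1, Ifitm2, Ifitm3 and Ifitm6), beside 9% of all genes, per the authors' deposited table. In Double it was 3 of 6 (Ifitm1, Ifitm3 and Ifitm6), beside 9.82%, per the authors' deposited table. Ifitm1 stood at -1.90 ± 0.17 (adjusted p = 6.59e-25) in Npm1 and -1.40 ± 0.19 (adjusted p = 6.14e-11) in Double, per the authors' deposited tables.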

How the data were processed

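Poly(A) RNA-seq of 12 libraries (4 groups of 3) is covered. Alignment was with STAR to mouse build mm9 and testing with DESeq2, per the submitters' processing notes, which give no versions here, and the read counter is not stated in the labels. The library kit keeps no record of strand. The authors deposited 3 comparisons with WT of 33018 transcripts each. The mean normalized count of a transcript is a signal that the authors made by dividing counts by size factors, per the file headers, within 1 comparison at a time. The log2 fold changes and standard errors deposited by the authors are moderated toward 0. The Wald score and its p-value are the authors', deposited beside an adjusted p that is blank for many low means. It is also blank for some genes of higher mean, among them the neutrophil marker Ngp (mean 3394) in all 3 comparisons. One transcript was kept per symbol, that of the highest mean, which left 24016 genes, and 53 symbols turned into dates were matched by accession.

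Each library's size factor was found from transcripts of a mean under 0.6. All 3259, 3078 and 3428 of them gave whole reads within a relative 1e-09. Reads of single libraries were then solved from the 12 printed digits of the means, jointly over the 3 comparisons, with lattice reduction, and kept only where the expected number of chance solutions was under 0.001. This gave 6674 of 7623 genes with means of 5 to 700. Of 300 means shifted on purpose, 0 were accepted. The 3 WT libraries are those whose reads fit all 3 comparisons, and replicate numbers cannot be tied to the libraries. No count model was run on them, since they cover part of the genes.

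A member counted as called where the authors' adjusted p was below 0.05. Mutant groups were compared with a normal z test on their fold changes, with the squared standard errors summed, Benjamini-Hochberg adjusted over all genes with a p in both. WT libraries are shared, which this variance leaves out of account. The scripts were tested on simulated data. The members, gene lists, roles, motifs and tests were chosen with earlier results of these data known. All 39 members are named, as are the genes of the signalling, interferon gamma, Oas and Ifitm lists that passed the threshold; cell markers are given by counts and ranges, with a few named for their level. The exact Oas and Ifitm lists, the values per library and the comparisons within 1 sex were added after the data were seen. One gene in each of 2 pathway lists is not reported here and was left out of their counts. Near-identical paralogues (Ifit3, Ifi203, Ifi204, Trim30a, Ifi27l2a and the Oas genes) may share reads. Analyses used Python 3.11.15, numpy 2.4.6, pandas 2.3.3, scipy 1.17.1, sympy 1.14.0 and matplotlib 3.10.9.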

Additional observations from a re-analysis of the deposited data

Results flagged for a closer look

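The response to genotype differed between mutant groups for 8 members by the z test of the difference (adjusted over all genes, with the same WT libraries in both fold changes). Between Npm1 and Smc3 the differences in log2 fold change were -0.89 for Ddx58, -1.07 for Trim30a, -0.57 for Samd9l, -0.95 for Ifi44, -0.84 for Ifi203 and -0.63 for Sp100, all lower in Npm1. These were 6 of 39 members, beside 7.57% of all genes. Between Double and Npm1 the differences were -1.11 for Rsad2 and -0.47 for Lgals3bp, lower in Double, and 0.79 for Ifi203, higher in Double. These counts, 2 and 1 of 39 members, stood beside 2.89% and 4.09% of all genes and are read as near the background. Library counts exist for 3 of these genes. The Npm1 libraries of Ddx58 (224 to 302 normalized counts) lay below all Smc3 libraries (441 to 550), as held for 31.8% of genes read back. The Double libraries of Rsad2 (121 to 137) lay below all Npm1 libraries (145 to 334), as held for 8.11% of genes. For Ifi44, the deepest Smc3 library (14 normalized counts) lay within the Npm1 range of 6.27 to 19.1. With 3 libraries a group, no single library was tested as an outlier.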

How the results depend on the processing

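Of 69 alternatives to the counts and medians of the deposited comparisons, 57 stayed within 1.5 times the count or within 1 SD of the median, 12 moved and 0 reversed. At an adjusted p under 0.01, members lower in Npm1 numbered 9 rather than 15, and members higher numbered 0 in Smc3 and 0 in Double rather than 1. With Benjamini-Hochberg adjustment over every gene with a p, members higher in Smc3 numbered 0. For Double against Npm1, members lower and higher numbered 1 and 0 at 0.01 (2 and 1 at 0.05), and 6 and 6 with the shared WT variance removed; 2 were higher among genes with a mean of at least 50. For Double against Smc3, 2 were lower with the shared WT variance removed. For Npm1 against Smc3, 2 were lower at 0.01 and 2 higher with the shared WT variance removed. The shares of all genes at an adjusted p under 0.01 were not counted, and the cause of these shifts was not tested. The median log2 ratio of group means over the 18 members read back was -0.19 in Smc3 (-0.51 to -0.10 with 1 library left out), -1.03 in Npm1 (-1.34 to -0.82) and -0.98 in Double (-1.22 to -0.69). With the 1 Smc3 library without Y-linked reads it was 0.04, a change of sign, and with the 1 such Double library -0.48. Members with every library below WT numbered 5 to 10 in Smc3 (10 without the shallowest Smc3 and 8 without the shallowest WT library), 13 to 16 in Npm1 and 10 to 13 in Double with 1 library left out. The authors' calls were not recomputed without single libraries. Depth limits the library values to members with means under about 700. No paired analysis was possible because the deposited comparisons carry no replicate numbers.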
